A study of Mus musculus with 6 samples.

Results

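Antimicrobial peptides and acute-phase proteins are secreted molecules with which skin meets microbes and injury, and 10 genes of this kind were followed among the 18180 genes of the count table of a mouse tail skin study. The genes were taken by name from the table's gene column, and all 10 were found: the beta-defensins Defb3, Defb4, Defb6 and Defb14, the cathelicidin Camp, the siderophore-binding protein Lcn2, the serum amyloid Saa3, the lectin Reg3g, the peptidoglycan recognition protein Pglyrp1 and the lysozyme Lyz1. RNA was sequenced from tail skin of 2 groups of mice with 3 libraries each. The libraries labelled cKO came from Mettl3fl/fl;K14creERT2+/- mice, in which a tamoxifen-activated Cre recombinase under the keratin 14 promoter acts in basal keratinocytes, and were taken from tail areas that had become inflamed spontaneously. The Ctrl libraries came from normal tails of Mettl3fl/fl;K14creERT2-/- mice, which carry the same floxed Mettl3 alleles without the Cre. Per the series' design text, tamoxifen was injected on 5 days and skin was taken 4 weeks later, and the text does not say separately whether the control mice were injected. Genotype and inflammation go together in this design and cannot be told apart. Mettl3 encodes the catalytic subunit of the complex that writes N6-methyladenosine on RNA. Which cells of the skin had lost the floxed gene was not measured here.

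Beta-defensins are small cationic peptides with paired cysteines that damage bacterial membranes and also attract leukocytes. In mouse epidermis several of them are produced at low levels until keratinocytes receive signals such as IL-17, IL-22, IL-1 or bacterial products, which act through NF-kB, C/EBP and STAT factors. Acute-phase proteins are made mostly by the liver in systemic inflammation, but Lcn2, which takes iron-carrying siderophores from bacteria, and Saa3, the serum amyloid A of tissues outside the liver, are also made locally by epithelial cells, macrophages and fat cells. Camp and Pglyrp1 are stored in neutrophil granules, and Camp is also made by keratinocytes.

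Mettl3 had 569, 512 and 540 counts in the libraries labelled cKO and 440, 389 and 337 counts in the Ctrl libraries. The targeted gene was thus higher in those labelled cKO (a log2 fold change of 0.48 with an SE of 0.11, edgeR quasi-likelihood test, adjusted p = 0.000102). That is opposite to what the label implies, and directions below are therefore stated for libraries by their label. The counts cover the whole gene, and the floxed exons were not analysed separately here. Library totals ran from 35855880 to 36113956 counts in the libraries labelled cKO and from 36115822 to 37043849 in the Ctrl libraries. The epidermal keratin markers Krt1, Krt10 and Krt14 were abundant in all 6 libraries, at group means of 20492, 24276 and 7687 CPM (a gene's part of the TMM-scaled library total, times 1e+06) in the libraries labelled cKO and 2170.1, 17342 and 4157 CPM in the Ctrl libraries. Of 8 listed keratinocyte markers 5 were higher and 3 lower, the lower ones being Krt15 (368 CPM against 759.8 CPM), Sbsn (1448 CPM against 1867 CPM) and Krtdap. No label ties a library to an animal of its own, and the p-values therefore refer to the spread among these 6 libraries alone, part of which may be technical. Within each group, pairs of libraries differed by 3.94 to 4.12 times the variance expected from sampling alone. In absolute terms that spread was small. Among genes with moderately high counts the median coefficient of variation was 3.94% in the libraries labelled cKO and 3.95% in the Ctrl libraries. How much of it lies between animals is not known here, so small p-values and narrow intervals need not hold for other mice. In bulk skin, fewer cells of a type and less RNA per cell cannot be told apart.

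Upstream sequences are shown for the members whose contrast runs between close relatives, and for the induced genes Lcn2, Saa3 and Reg3g. RefSeq (build GRCm38.p6, another build than the mm39 of the counts) gave 250 bases before the annotated gene start for 8 of the 10 genes. Defb3 and Defb6 lie in 1 beta-defensin cluster on chromosome 8, and their upstream windows are chr8:19293111-19293360 (+ strand) and chr8:19225228-19225477 (+ strand). In the next 2 lines capitals mark bases that differ between these sequences, or lack a partner, in a global alignment.
Defb3: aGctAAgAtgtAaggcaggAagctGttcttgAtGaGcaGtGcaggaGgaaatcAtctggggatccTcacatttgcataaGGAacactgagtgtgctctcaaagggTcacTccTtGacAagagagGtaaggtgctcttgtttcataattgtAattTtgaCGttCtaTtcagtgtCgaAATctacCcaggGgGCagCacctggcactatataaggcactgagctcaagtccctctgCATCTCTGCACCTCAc
Defb6: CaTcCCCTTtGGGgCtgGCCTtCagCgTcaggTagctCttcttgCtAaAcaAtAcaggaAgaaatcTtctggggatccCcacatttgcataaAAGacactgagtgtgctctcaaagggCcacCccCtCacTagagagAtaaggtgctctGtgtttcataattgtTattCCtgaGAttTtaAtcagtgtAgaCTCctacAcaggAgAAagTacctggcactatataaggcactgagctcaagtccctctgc
The pair had identical bases in 196 of 265 alignment columns (74.0%) and shared an exact run of 40 bases that holds the motif TATANAA. Lyz1 and its neighbour Lyz2, the lysozyme of macrophages and neutrophils, lie side by side on chromosome 10, with windows chr10:117292869-117293118 (- strand) and chr10:117282273-117282522 (- strand). Capitals again mark the differences.
Lyz1: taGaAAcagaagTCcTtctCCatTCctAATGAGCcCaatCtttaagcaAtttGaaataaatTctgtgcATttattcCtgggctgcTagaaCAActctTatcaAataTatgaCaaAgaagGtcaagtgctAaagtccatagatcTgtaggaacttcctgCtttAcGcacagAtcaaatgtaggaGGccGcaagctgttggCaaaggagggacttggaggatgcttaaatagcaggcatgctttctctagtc
Lyz2: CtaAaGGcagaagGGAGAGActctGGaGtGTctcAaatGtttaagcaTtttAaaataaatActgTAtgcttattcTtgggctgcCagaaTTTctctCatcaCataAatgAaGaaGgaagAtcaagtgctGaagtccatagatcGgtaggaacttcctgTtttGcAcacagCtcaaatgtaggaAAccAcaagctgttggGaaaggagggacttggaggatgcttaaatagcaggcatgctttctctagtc
Here 205 of 260 alignment columns were identical (78.8%), with a shared exact run of 50 bases. The other 34 pairs among the 8 genes and Lyz2 had identities from 45.9% to 53.8% and shared runs of at most 12 bases.

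For Lcn2 (chr2:32387740-32387989 (- strand)), Saa3 (chr7:46715677-46715926 (- strand)) and Reg3g (chr6:78468875-78469124 (- strand)), capitals mark matches to short forms of known motifs. These were TTNNGCAA for C/EBP, TTCNNNGAA for STAT factors, TGANTCA for AP-1 and the kappa-B decamer for NF-kB, each on both strands, and TATANAA on the gene's strand.
Lcn2: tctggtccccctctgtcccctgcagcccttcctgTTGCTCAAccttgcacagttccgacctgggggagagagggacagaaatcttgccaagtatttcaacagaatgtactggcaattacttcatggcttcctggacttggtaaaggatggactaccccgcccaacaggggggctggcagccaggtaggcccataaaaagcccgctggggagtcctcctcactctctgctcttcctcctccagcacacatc
Saa3: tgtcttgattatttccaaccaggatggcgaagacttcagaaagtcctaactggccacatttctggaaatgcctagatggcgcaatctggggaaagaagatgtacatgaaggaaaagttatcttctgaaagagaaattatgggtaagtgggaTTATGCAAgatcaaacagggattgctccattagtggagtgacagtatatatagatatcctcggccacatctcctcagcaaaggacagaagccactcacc
Reg3g: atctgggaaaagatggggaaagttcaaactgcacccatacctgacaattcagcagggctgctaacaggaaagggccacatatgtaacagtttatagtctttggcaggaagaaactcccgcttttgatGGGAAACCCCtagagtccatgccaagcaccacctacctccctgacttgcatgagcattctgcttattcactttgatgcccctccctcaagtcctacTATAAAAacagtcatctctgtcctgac
The capitals are C/EBP forms in Lcn2 and Saa3, and an NF-kB form followed by TATANAA in Reg3g. The C/EBP form was present in 5 of the 8 windows (Defb3, Defb6, Lcn2, Saa3 and Lyz1) and in 9.56% of all 32851 upstream windows of the same length. The kappa-B decamer was in 3 of 8 (Defb6, Reg3g and Pglyrp1) and in 7.25% of all windows, and TATANAA in 3 of 8 (Defb3, Defb6 and Reg3g) and in 6.58% of all. The NF-kB search was run with 3 forms in turn, and the decamer was taken last, after the counts of the other forms had been seen. A first form, in which 4 free bases stand between GGGA and CC, was in 2 of 8 windows (Reg3g and Pglyrp1) and in 17.63% of all, and a form with 1 G less, GGANNNNCC, was in 7 of 8 and in 42.31% of all. The count of members with an NF-kB form thus depends on the form chosen, and nothing is read from it. No member's window held the STAT form (7.02% of all windows) or the AP-1 form (6.75%). The C/EBP form thus occurred upstream of Lyz1, which was lower in the libraries labelled cKO, as well as of genes that were higher.

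Of the 10 genes, 7 were higher in the libraries labelled cKO, 1 was lower, 1 did not pass the test and 1 had too few counts to be tested. Across all 15061 genes tested with edgeR's quasi-likelihood test, 30.8% were called higher and 30.6% lower at an adjusted p under 0.05. The counts of every gene list named in the text stand against the same shares. Of the 7 higher genes, all but Defb6 were at least 2-fold higher, which makes 6, as were 5.98% of all genes tested, and Lyz1 was among the 4.79% that were at least 2-fold lower. Reg3g entered the test only through its counts in the libraries labelled cKO, so its call was fixed once it passed the filter. It is included in the counts of higher members in this paragraph and adds no support to them. With assumed biological coefficients of variation of 20% and 40% in place of the spread between libraries, 6 and 5 members were called higher, where 12.2% and 3.04% of all genes were, and Lyz1 stayed lower among 10.2% and 2.1%. The CPM values did not overlap between groups in the same 8 called genes, 7 higher and 1 lower, where 32.6% of all genes tested lay wholly higher and 32.3% wholly lower.

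**Figure D1:**
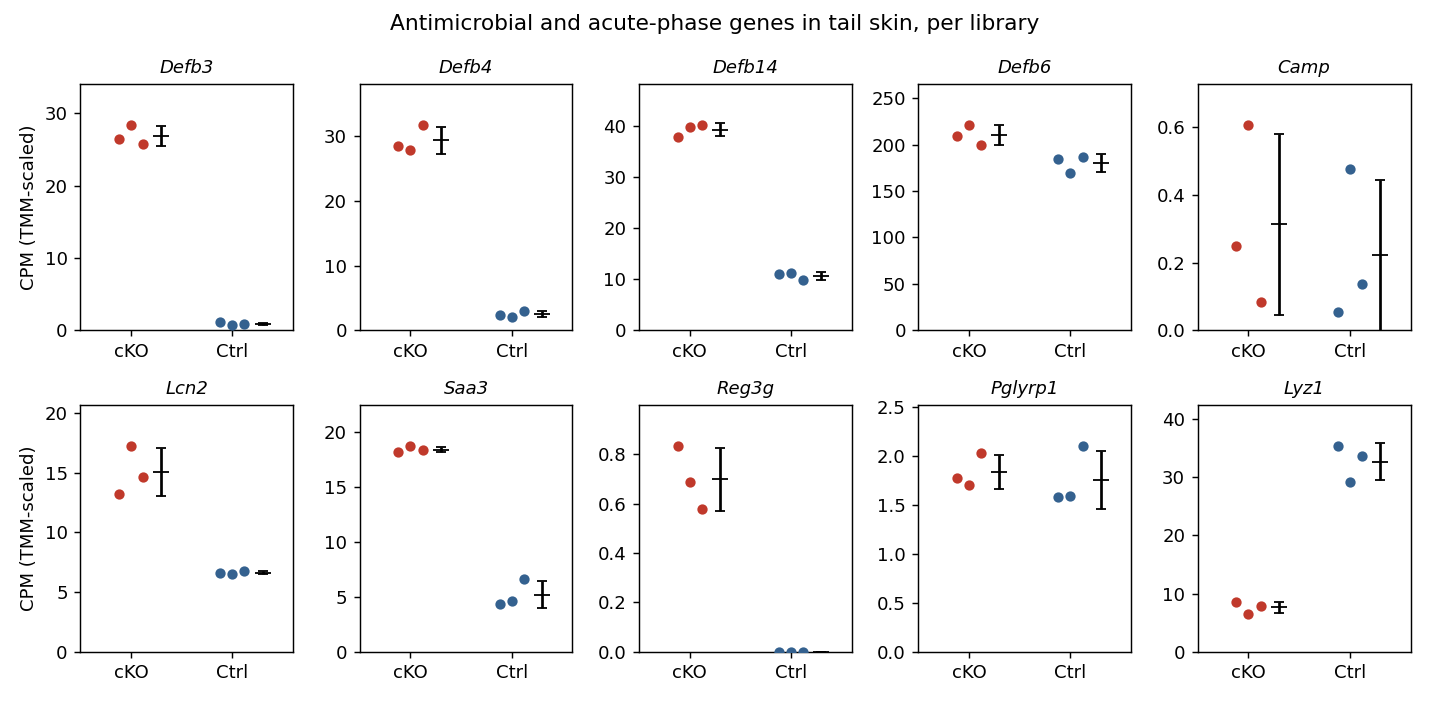
CPM of each of the 10 genes (vertical axes, linear and starting at 0, a scale per gene) in the 3 libraries labelled cKO (red) and the 3 Ctrl libraries (blue), with the group mean and SD in black, cut at 0 for Camp. The groups are apart in 8 panels and overlap for Camp and Pglyrp1, and Lyz1 is the only gene that lies lower in the libraries labelled cKO.

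The beta-defensins moved in the same direction by very different amounts. Defb3, an inducible beta-defensin of epithelia, had 955, 1031 and 935 counts in the libraries labelled cKO and 40, 28 and 30 counts in the Ctrl libraries. That is 26.8 ± 1.39 CPM against 0.896 ± 0.169 CPM (SD, n = 3 each), a 29.8-fold rise with a 95% confidence interval of 24.5 to 36.3 (log2 fold change 4.90, SE 0.14, adjusted p = 1.18e-43). The lowest library labelled cKO was far above the highest Ctrl library.

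Defb4, another inducible beta-defensin, had 1029, 1011 and 1154 counts in the libraries labelled cKO and 89, 74 and 112 counts in the Ctrl libraries. It rose 11.7-fold, with an interval of 9.88 to 13.7 (29.3 ± 2.07 CPM against 2.51 ± 0.498 CPM, adjusted p = 9.79e-40). The spread between Ctrl libraries was wide in proportion, but the groups stayed apart by an order of magnitude. Defb14, the mouse counterpart of human DEFB103, had 1373, 1447 and 1467 counts in the libraries labelled cKO and 405, 400 and 362 counts in the Ctrl libraries. It rose 3.69-fold (39.4 ± 1.2 CPM against 10.7 ± 0.721 CPM, adjusted p = 1.86e-33), with little spread in either group.

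Defb6, a beta-defensin first described in mouse skeletal muscle, was already abundant in normal tail skin. It had 7570, 8033 and 7283 counts in the libraries labelled cKO and 6773, 6052 and 6836 counts in the Ctrl libraries. Its rise was 1.17-fold, with an interval of 1.12 to 1.23 (210 ± 10.6 CPM against 180 ± 9.5 CPM, adjusted p = 4.11e-07). The groups did not overlap, and the difference of means was larger than the SD of either group, but with an assumed biological coefficient of variation of 20% the adjusted p was 0.567. Summed over 6 skeletal muscle markers, the libraries labelled cKO held 14.7, 28.6 and 13.4 CPM and the Ctrl libraries 15.1, 11.6 and 11.1 CPM. The second library labelled cKO was the highest in both Defb6 and muscle markers. In the Ctrl group the third library had the most Defb6 (186 CPM) and the least muscle marker. The part of muscle in the Defb6 values was not tested.

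Levels of different genes are compared here as FPKM, the fragments per kilobase of gene and 1e+06 counted that the authors deposited. Among the 4 beta-defensins, Defb6 averaged 656 ± 33.3 FPKM in the libraries labelled cKO and 552 ± 29.1 FPKM in the Ctrl libraries (SD, n = 3 each), ranking 128 and 171 among 18180 genes by mean FPKM. Defb3 averaged 84 ± 4.41 FPKM and 2.76 ± 0.517 FPKM, and ranked 807 in the libraries labelled cKO and 9598 in the Ctrl libraries. Defb6 therefore stood 7.81-fold over Defb3 in the libraries labelled cKO and 200.1-fold over it in the Ctrl libraries. Defb3, Defb4 and Defb14 together made up 20.4%, 20.1% and 21.7% of the FPKM of the 4 genes in the libraries labelled cKO and 2.56%, 2.49% and 2.51% in the Ctrl libraries. Defb6 remained the most abundant of the 4 in every library. The FPKM of Defb14 rest on a gene length of 1745 bp in the deposited table, against 322 bp for Defb3, 458 bp for Defb4 and 323 bp for Defb6, so its place among them depends on the annotation used. In CPM, which does not use length, Defb14 was above Defb3 and Defb4 in both groups.

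**Figure D2:**
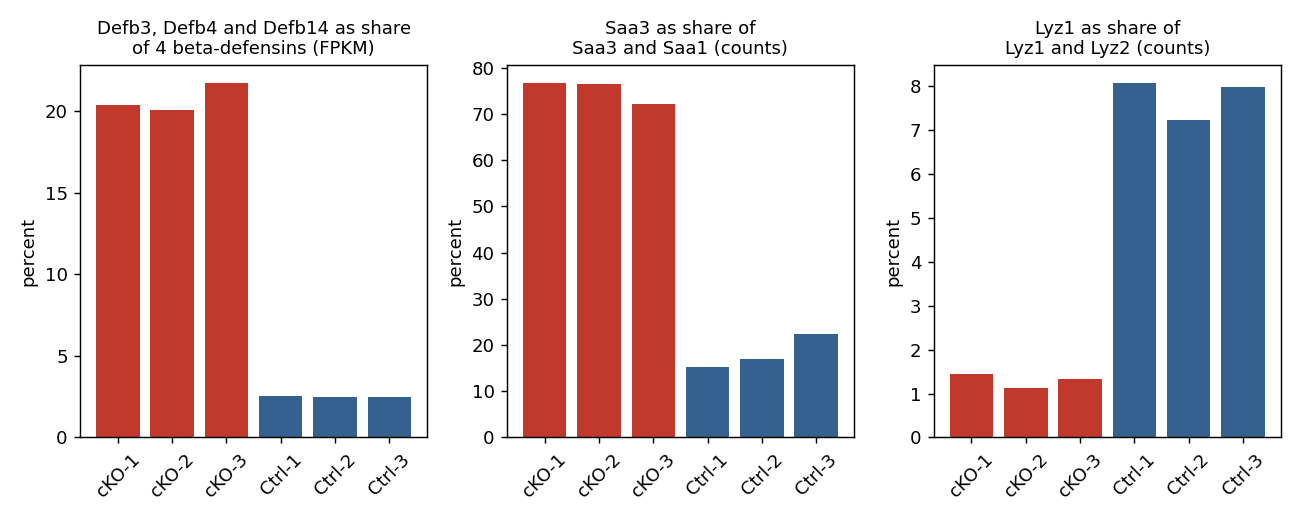
Percent (vertical axes, starting at 0) taken in each library by Defb3, Defb4 and Defb14 of the FPKM of the 4 beta-defensins, by Saa3 of the counts of Saa3 and Saa1, and by Lyz1 of the counts of Lyz1 and Lyz2, with libraries labelled cKO in red and Ctrl libraries in blue. The first 2 shares are higher in every library labelled cKO and the Lyz1 share is lower in each, at 1.13% to 1.45% against 7.23% to 8.08%.

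Of 19 other beta-defensin genes listed, 8 were in the table and 2 were tested. Defb1, the constitutive beta-defensin of epithelia, rose 1.99-fold (166 ± 2.06 CPM in the libraries labelled cKO and 83.6 ± 3.6 CPM in the Ctrl libraries, adjusted p = 4.69e-39). Defb2 was near the limit of detection, with 5 counts over the libraries labelled cKO and 37 over the Ctrl libraries (log2 fold change -2.79, SE 0.96). It passed the filter only through the Ctrl libraries, so no p-value is given and its call adds no support. That call was lost without the second or the third library labelled cKO. Defb5 had 26 counts against 12, and the other 5 had at most 5 counts in either group.

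Camp, the mouse cathelicidin precursor, gave no detectable difference at this depth. It had 9, 22 and 3 counts in the libraries labelled cKO and 2, 17 and 5 counts in the Ctrl libraries, which was too few for the low-count filter. The groups overlapped throughout, and without a filter the adjusted p was 0.663, with an interval of -1.23 to 2.22 on the log2 scale. Of 9 listed granule genes of neutrophil precursors in the table, 5 were too rare to be tested. Among these, Ngp had 20 counts over the libraries labelled cKO and 12 over the Ctrl libraries, Ltf 18 and 2, Mpo 4 and 5, and Elane 1 and 4 counts. Of the 4 tested, Mmp9 (2561 against 355 counts) and Chil3 (191 against 10 counts) were higher, and Prtn3 (27 against 44) and Ctsg (41 against 65) did not pass the test. Chil3 passed the filter only through the libraries labelled cKO, so its call adds no support. Of the list of cathelicidin-processing proteases and their inhibitor, 6 of 7 tested genes were higher and none lower (median log2 fold change 0.61, against 0.00207 over all genes tested). Among them the kallikrein genes Klk6, Klk14 and Klk8 rose 7.06-fold, 4.39-fold and 2.85-fold, and the kallikrein inhibitor Spink5 rose 1.52-fold (1963 ± 8.84 CPM against 1289.7 ± 12.9 CPM).

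Lcn2, which withholds iron from bacteria by binding siderophores, had 479, 625 and 533 counts in the libraries labelled cKO and 243, 235 and 248 counts in the Ctrl libraries. It rose 2.26-fold, with an interval of 1.92 to 2.67 (15 ± 2 CPM against 6.64 ± 0.0985 CPM, log2 fold change 1.18, SE 0.12, adjusted p = 6.61e-14). Ctrl libraries were close together and the libraries labelled cKO spread more widely, all above them. With an assumed biological coefficient of variation of 40% its adjusted p was 0.182. Slc22a17, a receptor described for Lcn2, fell 1.75-fold (16.4 ± 1.32 CPM against 28.7 ± 1.77 CPM, adjusted p = 4.88e-14).

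Saa3 had 655, 678 and 668 counts in the libraries labelled cKO and 158, 167 and 242 counts in the Ctrl libraries. It rose 3.54-fold, with an interval of 2.99 to 4.2 (18.4 ± 0.266 CPM against 5.19 ± 1.23 CPM, adjusted p = 3.98e-22). The third Ctrl library was the highest of its group and still far below the libraries labelled cKO. Its relative Saa1, a serum amyloid A that the liver secretes into blood, went the other way, with 667 counts over the libraries labelled cKO and 2531 over the Ctrl libraries (6.13 ± 0.864 CPM against 23.2 ± 0.8 CPM, log2 fold change -1.92, SE 0.11, adjusted p = 2.04e-26). Saa3 therefore made up 76.7%, 76.4% and 72.1% of the counts of both genes in the libraries labelled cKO and 15.2%, 17.1% and 22.5% in the Ctrl libraries. Saa1 shares 31.48% of its 50-base stretches with other transcripts, chiefly Saa2 and next Saa3, so its counts and the share above are uncertain. Saa3 shares 4.15% of its 50-base stretches with other transcripts and 0% of its 100-base stretches. Saa2 itself had 7 counts against 11. Adipocytes also make serum amyloid A, and 5 of 6 adipocyte markers were lower and none higher. Across the alternative fits described below, as few as 0 of them were called lower. The summed level of these markers ran from 494 to 499.9 CPM in the libraries labelled cKO and from 603 to 613 CPM in the Ctrl libraries. The part of adipocytes in the Saa1 and Saa3 values was not tested.

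Reg3g, a C-type lectin that kills Gram-positive bacteria and is known best from the gut, had 30, 25 and 21 counts in the libraries labelled cKO and none in any Ctrl library. Against a floor of 3 counts over the Ctrl group, its 76 counts over the libraries labelled cKO were 25.4-fold higher. That value leaves out the counting error of the 76 counts. No p-value is given, since Reg3g passed the filter only through the libraries labelled cKO. Even so its level was low, at 0.911 ± 0.165 FPKM in the libraries labelled cKO, which ranked 12136 among 18180 genes. Extl3, described as a receptor of Reg3 lectins on keratinocytes, did not pass the test.

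Pglyrp1, which binds bacterial peptidoglycan, had 64, 62 and 74 counts in the libraries labelled cKO and 58, 57 and 77 counts in the Ctrl libraries. The groups overlapped (1.84 ± 0.172 CPM against 1.76 ± 0.295 CPM, adjusted p = 0.863). The interval of its fold change, 0.69 to 1.59, still allows changes of that size in either direction. Of its relatives, Pglyrp3, which is made in epidermis, rose 3.27-fold (29.2 ± 2 CPM against 8.94 ± 0.609 CPM, adjusted p = 2.13e-27), while Pglyrp4 (52.8 ± 2.73 CPM against 55.3 ± 4.33 CPM, adjusted p = 0.297) and Pglyrp2 (adjusted p = 0.472) did not pass the test.

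Lyz1, the lysozyme known from intestinal Paneth cells, was the single member that fell. It had 307, 237 and 285 counts in the libraries labelled cKO and 1295, 1043 and 1234 counts in the Ctrl libraries. The 4.29-fold fall, with an interval of 3.76 to 4.89, left every library labelled cKO far below every Ctrl library (7.62 ± 1 CPM against 32.7 ± 3.19 CPM, log2 fold change -2.10, SE 0.095, adjusted p = 9.26e-32). Lyz2 had 20874, 20726 and 21179 counts in the libraries labelled cKO and 14733, 13385 and 14197 counts in the Ctrl libraries, and rose 1.49-fold (adjusted p = 1.21e-38). Lyz1 held 1.45%, 1.13% and 1.33% of the counts of the pair in the libraries labelled cKO and 8.08%, 7.23% and 8% in the Ctrl libraries. Of the 50-base stretches of Lyz1 transcripts in GENCODE M21, 16.06% also occur in Lyz2, and 2.06% of its 100-base stretches, so some reads could have been assigned to either gene. With the counts of the pair summed, the sum rose 1.39-fold (log2 fold change 0.48, SE 0.020, adjusted p = 4.71e-32). Of 8 sebaceous gland markers 7 were lower and none higher, with summed levels of 493 to 506 CPM in the libraries labelled cKO and 878 to 900.1 CPM in the Ctrl libraries, and of 12 macrophage and monocyte markers, Lyz2 among them, 11 were higher and none lower (5 and 2 higher with the assumed coefficients of 20% and 40%). The part of these cells in the lysozyme values was not tested.

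**Figure D3:**
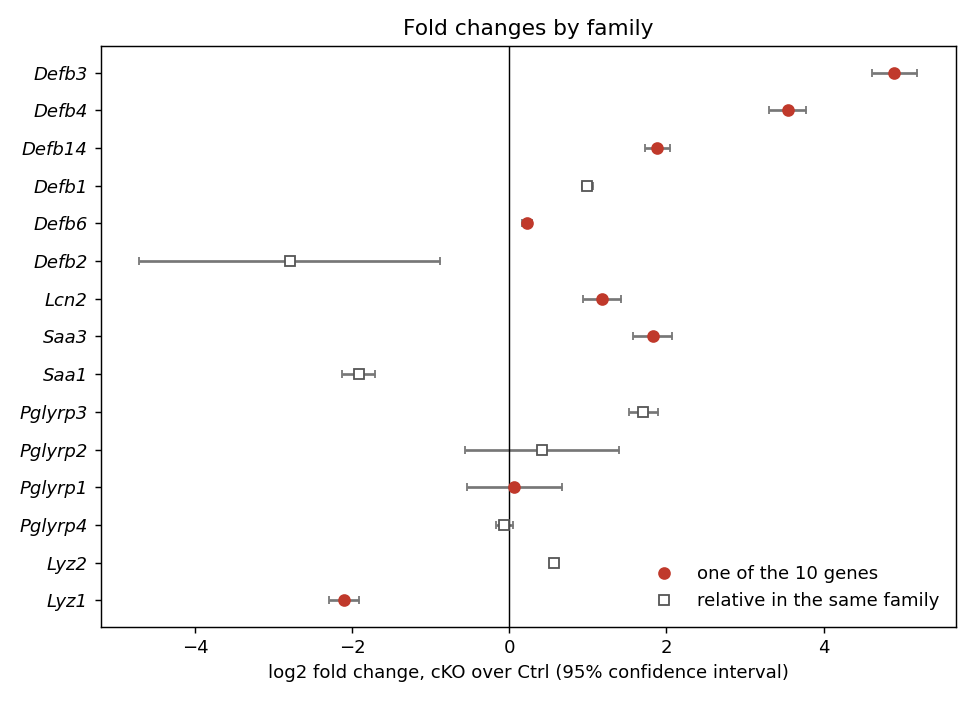
Log2 fold change of the libraries labelled cKO over the Ctrl libraries (horizontal axis) with its 95% confidence interval, for 8 of the 10 genes (filled circles) and their tested relatives (open squares), grouped by family from top to bottom. Saa3 lies right of 0 and Saa1 left of it, Lyz2 right and Lyz1 left, and Defb3 at 4.90 is farthest from 0. Reg3g, with no Ctrl counts, and Camp, which was not tested, are not drawn. Defb2 is drawn but passed the filter only through the Ctrl libraries, so nothing is read from its interval.

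Ordered by FPKM, the libraries labelled cKO ran from Defb6 through Defb3, Defb4 (64.6 ± 4.54), Saa3 (34.9 ± 0.533), Defb14 (22.8 ± 0.71), Lcn2 (17.8 ± 2.38), Lyz1 (6.07 ± 0.796) and Pglyrp1 (2.72 ± 0.255) to Reg3g and Camp (0.526 ± 0.45). Of neighbours in that order, only Reg3g and Camp overlapped between libraries. In the Ctrl libraries Lyz1 came second after Defb6 (25.6 ± 2.49), followed by Saa3 (9.69 ± 2.3), Lcn2 (7.72 ± 0.118), Defb14 (6.07 ± 0.406), Defb4 (5.44 ± 1.08), Defb3, Pglyrp1 (2.56 ± 0.431), Camp (0.367 ± 0.369) and Reg3g at 0. Defb14 and Defb4 overlapped there, as did Defb3 and Pglyrp1.

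By the distance between log2 CPM profiles over the 6 libraries, among 11761 genes with at least 5 CPM in a group, Defb3 was closest to Il1b, Stfa2 and Cstdc6, whose log2 fold changes were 4.73, 4.49 and 4.66. Lcn2 was closest to Sash3, Mcm3 and Csf2rb2, at 1.15, 1.02 and 1.03. Lyz1 was closest to Hsd17b14, Gm11567 and the keratin-associated protein gene Krtap19-4, at -2.28, -1.99 and -2.10. With 2 groups these distances mostly reflect the size of the group difference.

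Other antimicrobial proteins went both ways, with 7 of 17 tested genes higher and 4 lower (median log2 fold change 0.10), where 30.8% of all genes tested were higher and 30.6% lower. Slpi, a protease inhibitor with antibacterial activity, rose 10.9-fold (168 ± 3.52 CPM against 15.5 ± 1.2 CPM, adjusted p = 2.93e-65), lactoperoxidase (Lpo) rose 11.6-fold, and Ccl20, an antibacterial chemokine, rose 3.12-fold. Pla2g5, a secreted phospholipase, fell 2.6-fold and the chemokine Cxcl14 fell 1.34-fold. Acute-phase genes had 6 of 13 higher and 3 lower (median 0.21). The haemoglobin scavenger haptoglobin (Hp) rose 3.48-fold (129 ± 1.61 CPM against 36.9 ± 1.99 CPM, adjusted p = 6.89e-49), complement C3 rose 3.14-fold and pentraxin Ptx3 rose 5.02-fold. Orm1, the orosomucoid of plasma, fell 3.55-fold (25.2 ± 2.72 CPM against 89.7 ± 2.08 CPM, adjusted p = 3.31e-42).

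Among receptors and adaptors known to induce these genes, 10 of 20 were higher and 6 lower (median 0.10), where 30.8% of all genes tested were higher and 30.6% lower. The pattern recognition receptors Tlr2 and Tlr4 rose 2.24-fold and 1.71-fold, their adaptor Myd88 rose 1.45-fold and the IL-17 receptor subunit Il17ra rose 1.37-fold. Il6ra and Il20rb fell 1.94-fold and 1.88-fold. Of 17 tested transcription factors of this response, 10 were higher and 2 lower (median 0.50). Elf3, an epithelial factor, had the largest rise in the list, 12.7-fold (5.49 ± 0.293 CPM against 0.429 ± 0.198 CPM, adjusted p = 2.45e-19), Fosl1 rose 2.38-fold and Nfkb2 1.71-fold, while Stat3 fell 1.09-fold and Cebpa 1.25-fold. Of 11 tested receptors through which these peptides act, 8 were higher and 1, Slc22a17, lower (median 1.47). Fpr2, a formyl peptide receptor that also binds serum amyloid A and cathelicidin, rose 11.3-fold, with 16 counts over the Ctrl group, and Ccr2 rose 2.79-fold. In that count of 8, Fpr2 and Trem1 passed the filter only through the libraries labelled cKO and add no support to it. With assumed biological coefficients of variation of 20% and 40%, 2 and 0 of the receptors and adaptors were called higher, and 6 and 1 of the transcription factors. Of all genes tested, 12.2% and 3.04% were then called higher.

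**Figure D4:**
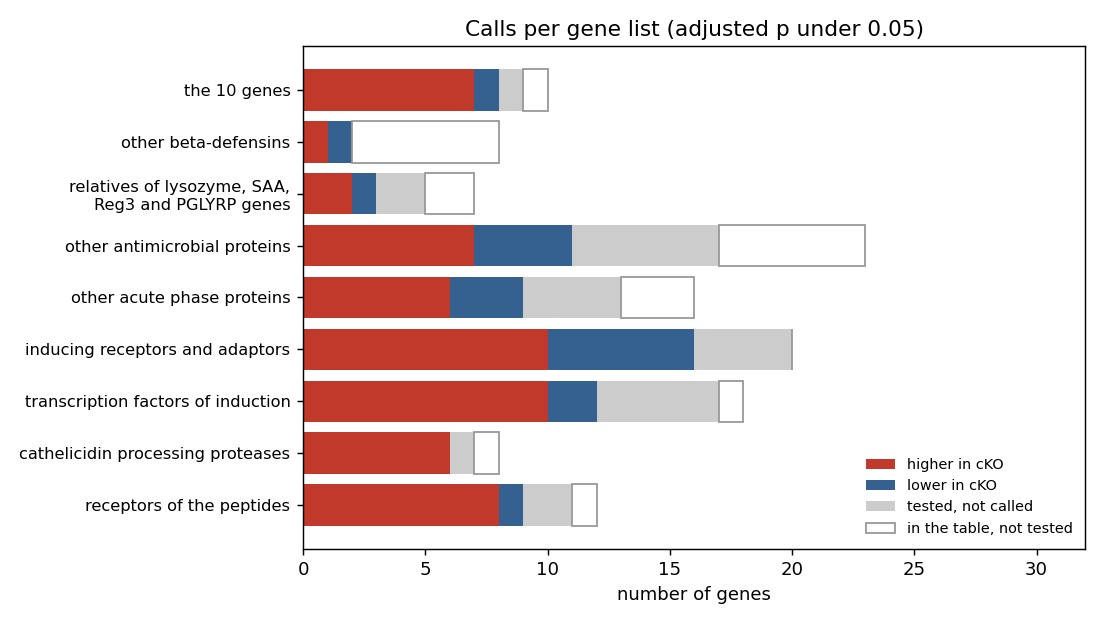
Number of genes per list (horizontal axis) called higher (red) or lower (blue) in the libraries labelled cKO, tested but not called (grey), or in the count table without being tested (white). Every list except the other beta-defensins holds more higher than lower calls, and only the processing proteases hold no lower call.

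Most tested markers of mature neutrophils were higher in the libraries labelled cKO. Camp, which neutrophil granules store, was too rare to be tested, and Pglyrp1, which they also store, did not pass the test. Of 11 tested markers of mature neutrophils 10 were higher and none lower, where 30.8% of all genes tested were higher. Of those higher, Trem1, Stfa2l1, Mmp8, Fpr1 and Retnlg passed the filter only through the libraries labelled cKO. Their calls add no support. Summed over the list, the level ran from 3510 to 3574 CPM in the libraries labelled cKO and from 115 to 119 CPM in the Ctrl libraries. It came mostly from S100a8 and S100a9, which keratinocytes also make. Csf3r, which neutrophils carry as the receptor of their growth factor, had 413, 397 and 451 counts in the libraries labelled cKO and 56, 80 and 54 counts in the Ctrl libraries. The defining marker Ly6g had 6, 1 and 8 counts against 0, 6 and 0, too few to be tested. Padi4 was level, with 1130 counts over the libraries labelled cKO and 1119 over the Ctrl libraries. Markers of neutrophil precursors had 2 of 4 tested genes higher and none lower, with Chil3 entering the test only through the libraries labelled cKO. Their sums were 26 to 27 CPM in those libraries and 3.6 to 6.13 CPM in the Ctrl libraries. These sums came mostly from Mmp9, at 23.5 CPM in the libraries labelled cKO and 3.24 CPM in the Ctrl libraries. Prtn3 (27 against 44 counts) and Ctsg (41 against 65) had fewer counts in the libraries labelled cKO, without passing the test. The part of neutrophils in the values of the 10 genes was not tested.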

How the data were processed

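Per the labels' protocols, tail skin RNA was isolated with TRIzol and libraries were prepared with a VAHTS Universal V5 kit. The authors deposited a table of whole-number counts per gene and a table of FPKM for the same 18180 genes. The submitters' processing notes name fastp, HISAT2, HTSeq and mm39 without versions. Strand setting and handling of multiply aligned reads: not given in the sources used here. The deposited FPKM equalled the counts divided by 1 gene length and the library total for all 18180 genes (relative tolerance 1e-06).

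The count test was run with edgeR 4.0.16 (R 4.3.3): filterByExpr (minimum count 10, minimum total 15), TMM scaling, robust quasi-likelihood fit with group as the only term, and Benjamini-Hochberg adjustment over 15061 genes, all tests two-sided. Standard errors were obtained as the log2 fold change over the root of the F statistic. Printed CPM use TMM-scaled library sizes, and 3 counts in a library correspond to 0.0817 to 0.0837 CPM. Floors cover only the counting error of the group without counts. Alternatives used DESeq2 1.42.0, limma 3.58.1, other scalings, filters and log2(FPKM) pseudocounts, an assumed biological coefficient of variation, a replicate block and the loss of each library.

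Upstream windows were aligned with Biopython 1.88 and matched to genes by symbol and gene number. Transcript stretches came from GENCODE M21. The 10 genes, the gene lists and the motifs were chosen with earlier results of these data known, and 3 forms of the NF-kB motif were tried. Genes named besides the 10 are all tested relatives, per list up to 4 called genes in the direction most took and up to 2 opposite (mean of 1 CPM or more where higher), and the 3 nearest profiles of Defb3, Lcn2 and Lyz1. Extl3, Saa2, Csf3r, Ly6g, Padi4, Mmp8, Fpr1, Retnlg, Ngp, Ltf, Mpo, Elane, Prtn3, Ctsg and Krtdap were named after their values were seen.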

Additional observations from a re-analysis of the deposited data

How the results depend on the processing

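The members called higher were 7 and lower 1 under DESeq2, limma-voom, RLE, upper quartile and total-count scaling, no filter, limma on log2(FPKM), an adjusted p of 0.01 and without any 1 library. With the replicate number as a block (replicate block) the counts were also 7 and 1. Same-numbered libraries did not vary together (correlations of -0.02, -0.01 and -0.04). These values show no pairing by number, but noise within groups could hide a small shared effect, so pairing is not excluded. Assumed biological coefficients of variation of 20% and 40% left 6 and 5 members higher and 1 lower, losing Defb6 at both and Lcn2 at 40%. All genes called higher then numbered 1830 and 458, and lower 1531 and 316, since a wider spread is assumed. A filter of 1 CPM in 3 libraries left 6 higher, because Reg3g was not tested. Summing Lyz1 and Lyz2 left 0 members lower, since Lyz1 then has no row of its own. Leaving out 1 library ended the calls of Defb2, Rnase6, Mt2 and Ckm, among the genes of the lists. No named gene reversed its direction with a call under any of these alternatives. Scaling moved the median log2 fold change of all genes to at most 0.03. At the depth of these libraries Camp and 6 of the other beta-defensins were too rare to compare.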
